A study of Danio rerio and Xenopus laevis and Xenopus tropicalis with 8 samples.

Results

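The middle of the zebrafish one-cell embryo is here the central part of the axis from the animal pole, where the blastodisc lies, to the vegetal end of the yolk. It was compared with both ends in tomo-seq data, in which an embryo is cut into serial cryosections, the RNA of each section is tagged with a section barcode, and every molecule is marked by a random barcode, its UMI (unique molecular identifier). Of the 8 samples of the series, 3 are zebrafish embryos. They are untreated AB wildtype embryos, frozen at the one-cell stage shortly after fertilization and cut at 10 µm from the animal to the vegetal side, and each was processed as a sample of its own. The frog oocytes of the series (2 of X. laevis, 2 of X. tropicalis) and its single-cell RNA labeling library from 6 h.p.f. did not enter the comparison. Sections with at least 10% of the median total of their embryo were kept, which left 212 of 288 sections. The kept sections of each embryo were divided in order into 3 regions, animal, middle and vegetal, with nearly equal numbers of sections. This gave 71 middle sections (23, 23 and 25 in embryos 1, 2 and 3), 72 animal and 69 vegetal sections. Sections left out also lay within regions, so the lengths of axis covered were less equal. The vegetal region ran from section 63 to 93 in embryo 2 and from 64 to 95 in embryo 3. The middle region ran from 39 to 62 and from 39 to 63. The weakest kept section had 33.2%, 10.9% and 10.2% of the median of embryos 1, 2 and 3, and the strongest section left out had 9.3%, 9.2% and 9.9%. A region is a length of the axis and not a cell type. Where the blastodisc ends was not determined, so a middle region may hold part of it.

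After fertilization, cytoplasm of the zebrafish egg streams along tracks through the yolk and collects in the blastodisc. RNAs that were placed in the oocyte are carried along, held back at the vegetal cortex or anchored elsewhere, and the vegetal cortex is known as the store of dorsal determinants and of part of the germ plasm, the RNA-rich cytoplasm that later marks the germ cells. The middle region is central by its position on the axis alone. The comparison asks which RNAs take a larger or smaller part of the transcripts there than at both ends.

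The middle region held 2784876, 3097650 and 8535607 expected counts in embryos 1, 2 and 3. This was 27.49%, 24.58% and 26.92% of the counts kept (26.33% ± 1.54, SD, n = 3). The mean share was 55.89% ± 5.37 in animal and 17.8% ± 6.52 in vegetal regions (SD, n = 3). The middle lay between the ends in all 3 embryos, although in embryo 2 the middle and the vegetal share, at 24.53%, were close to each other. Relative to the spike-in RNA added to every section, the middle region had 29.8, 103.2 and 165.9 counts per spike-in count. The animal region had 56.4, 172.3 and 235.1, and the vegetal region 21.1, 91.97 and 106.7. Mitochondrially encoded transcripts made up 24.5%, 26.03% and 2.08% of the counts of the middle region. This share was lower in every animal region (15.7%, 15.7% and 1.19%) and higher in every vegetal region (30.8%, 29.3% and 3.67%). In embryo 3 the UMI has 4 nt, so that no value can exceed 1597.0 counts, and 132 values of its middle region lay at this ceiling. Its animal and vegetal regions had 424 and 49 such values. This ceiling bounds the mitochondrial share of a section, and more tightly in deep sections. The mitochondrial shares of embryo 3 are therefore no independent repeat of the order in embryos 1 and 2, nor comparable in level. In embryos 1 and 2 the ceiling is 36908.7 counts, with 10 and 49 values at it. All levels below are CPM, that is, counts scaled to a total of 1000000 per region, and a higher share of mitochondrial transcripts lowers the share of all others. This share and the ceiling differ between embryos, so levels of different embryos are not on 1 scale. Overlap of values between embryos is given below as a description, and the tests compare regions within an embryo.

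**Figure D1:**
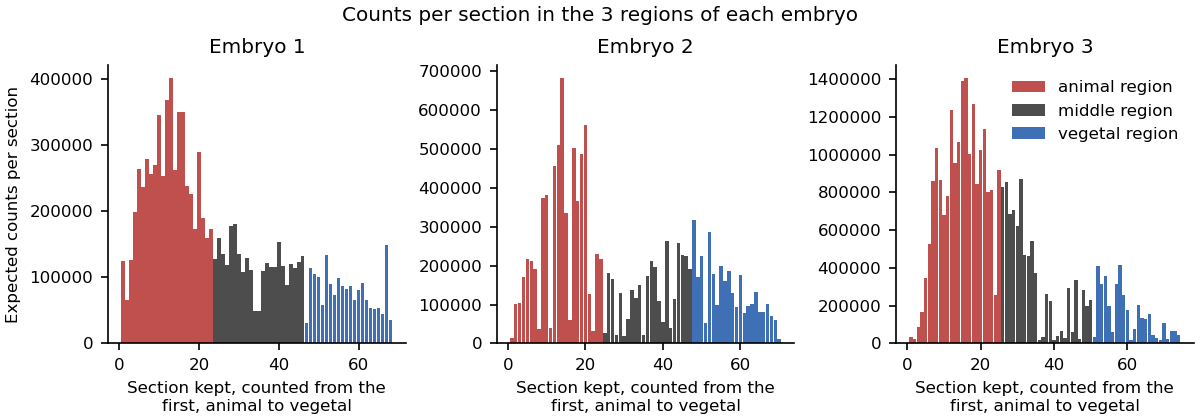
Expected counts per kept section (vertical axis) against the order of the section from the animal to the vegetal side, for embryos 1, 2 and 3; colors mark the regions. The animal-side part of the middle region held 51.3% of its counts in embryo 1, 33.3% in embryo 2 and 75.7% in embryo 3.

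With region totals as the scale, the level in the middle region lay between those of the ends for most genes. Of 10239 entries tested, each a gene or several genes whose reads were counted together, 68.9% had a fitted level between the poles, 14.1% above both and 17% below both. On this scale the median log2 change of all entries was −0.14 against the animal and 0.15 against the vegetal region. With TMM factors, another scaling, it was −0.01 and 0.01, and the share between the poles was not counted. When the middle was set against the mean of both poles, the animal and the vegetal region, on the log2 scale, 1 gene was higher in the middle (0.00977% of those tested) and 11 were lower (0.107%) at an adjusted p below 0.05 (quasi-likelihood test of edgeR, embryo as block, Benjamini-Hochberg). Without adjustment, 184 of the 10239 entries were higher and 326 lower at p below 0.05. Together they are near the share of 0.05 that this threshold passes where nothing differs. The median absolute log2 difference between the middle and the mean of the poles was 0.10, against 0.18 to the animal region and 0.22 to the vegetal region. The median shifts against the single ends have opposite signs and offset each other in the mean of the poles. The count of lower genes moved with the embryos used: it was 42 without embryo 1, 7 without embryo 2 and 23 without embryo 3, and the number of higher genes was 1, 0 and 2. Of the 12 calls, 10, 5 and 8 were kept in these 3 settings. Without the embryo as a block, edgeR called 0 genes, with 0 higher and 2 lower at an unadjusted p below 0.05.

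**Figure D2:**
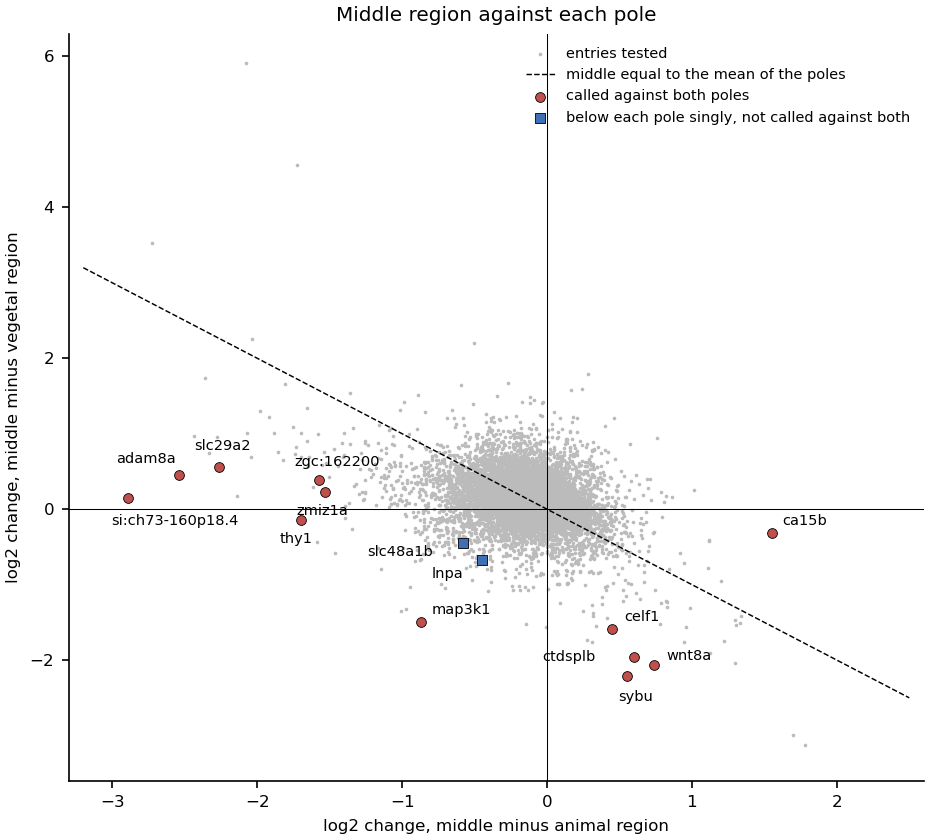
log2 change of the middle region against the animal region (horizontal axis) and against the vegetal region (vertical axis) for all 10239 entries tested; on the dashed line the middle equals the mean of the poles. Of the 12 genes called against both poles, 11 lie below the line and ca15b above it, and map3k1, lnpa and slc48a1b are the named genes called lower than each pole singly.

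The 12 genes had different shapes along the axis, since a gene can fall below the mean of the poles by following either end. In 6 of the 11 lower genes the level was high in the animal region and about as low in the middle as in the vegetal region. In 4, sybu, ctdsplb, wnt8a and celf1, it was high in the vegetal region, and the middle lay nearer to the animal level than to the vegetal level. The middle of these 4 was still called higher than the animal region, by log2 changes of 0.45 to 0.74. Of the 12, only map3k1 was called lower in the middle than in each end singly. When all sections were used, the weak ones included, the cut points of the regions moved too, since the first kept sections were 21, 15 and 13. The middle region then held 46.6% of the counts in place of 26.33%. In this setting 7 of the 12 lost the call: the 6 genes high in the animal region and ca15b.

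map3k1 (ENSDARG00000098405) encodes a kinase that acts upstream of the JNK pathway. Its level in the animal, middle and vegetal region was 59.9, 41.3 and 151 CPM in embryo 1, 127, 47.1 and 137 CPM in embryo 2, and 92.7, 59.4 and 137 CPM in embryo 3. The middle was the lowest region in each embryo, and no middle value reached the lowest value of either end. The log2 change against both poles was −1.18 ± 0.14 (SE; adjusted p = 5.2e-05, edgeR). It was −0.87 ± 0.16 against the animal region (adjusted p = 0.0003) and −1.5 ± 0.16 against the vegetal region (adjusted p = 2.9e-07). The kept sections were also divided in order into 10 bins of nearly equal number. The lowest bin was the fifth in embryo 1 (28.2 CPM), the sixth in embryo 2 (37.7 CPM) and the seventh in embryo 3 (47.5 CPM). The ninth bin held 167, 115 and 177 CPM and the last bin 226, 436 and 346 CPM. The call held when any 1 embryo was left out, with log2 changes between −1.37 and −1.05.

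Beside map3k1, lnpa and slc48a1b were lower in the middle than in each pole at an adjusted p below 0.05, which made 3 genes below both poles (0.0293% of entries). This number was 1 in DESeq2, 1 with all sections, 1 without mitochondrial genes and 1 without embryo 1, and 8 with 5 regions in place of 3. edgeR called no gene above both poles at this threshold (0% of entries), and DESeq2 called 0 as well. At an unadjusted p below 0.05, 16 entries were below both poles and 7 above both. By values alone, the middle was the lowest region in 3 of 3 embryos for 204 of the 10239 entries tested and the highest for 163. How many entries would show this by random order was not determined, so these counts are a description.

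lnpa (ENSDARG00000063646) encodes lunapark, a protein of the three-way junctions of the endoplasmic reticulum (ER). Its animal, middle and vegetal levels were 2158, 1565 and 3099 CPM in embryo 1, 962, 669.9 and 899.6 CPM in embryo 2, and 342, 265 and 399 CPM in embryo 3. The embryos differed far more from each other than the regions did, and only within an embryo was the middle always lowest. The log2 change was −0.45 ± 0.14 against the animal region (adjusted p = 0.042, edgeR) and −0.67 ± 0.14 against the vegetal region (adjusted p = 0.0032). slc48a1b (ENSDARG00000026109), which encodes a heme transporter, had 16.8, 11.1 and 19.4 CPM, 46.5, 29.4 and 36.2 CPM, and 90.3, 62.7 and 85.8 CPM in the same order. Here, too, the ranges of the regions overlapped between embryos. Its log2 change was −0.58 ± 0.13 against the animal region (adjusted p = 0.0031, edgeR) and −0.45 ± 0.14 against the vegetal region (adjusted p = 0.049). Against the mean of the poles, lnpa (−0.56 ± 0.12, adjusted p = 0.065) and slc48a1b (−0.51 ± 0.12, adjusted p = 0.074) did not pass the threshold.

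**Figure D3:**
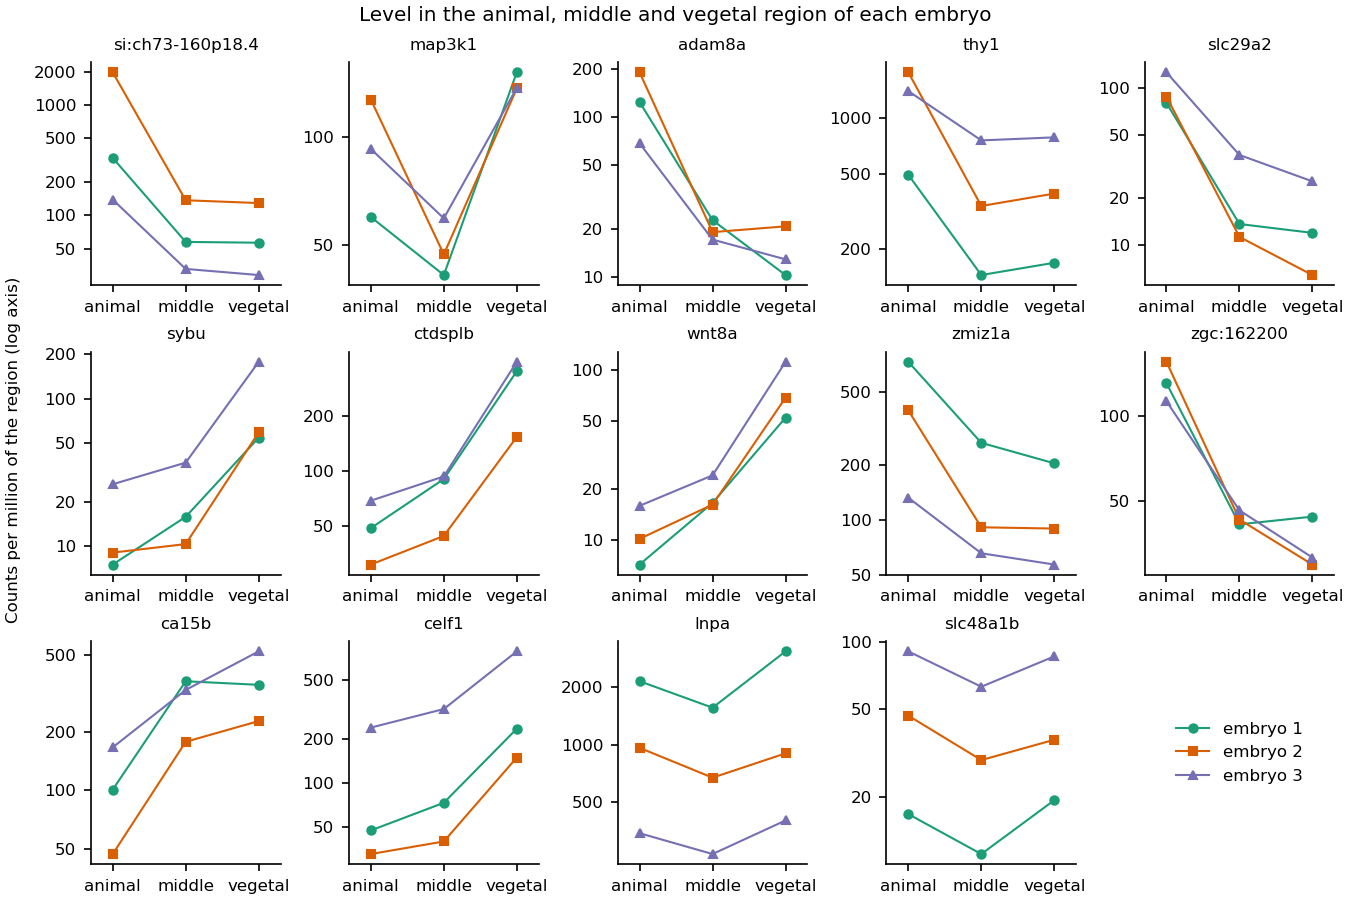
Level in CPM (log axis) in the animal, middle and vegetal region for the 12 genes called against both poles and for lnpa and slc48a1b, 1 line per embryo. The middle is the lowest region in all 3 embryos for map3k1, thy1, lnpa and slc48a1b. In the other genes the larger step lies on 1 side of the middle.

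The gene with the largest change against both poles was si:ch73-160p18.4 (ENSDARG00000099607). Its animal, middle and vegetal levels were 332, 57.5 and 56.5 CPM in embryo 1, 1984, 137 and 129 CPM in embryo 2, and 139, 32.7 and 28.8 CPM in embryo 3. In each embryo the animal region stood far above, and the middle was slightly above the vegetal region. The log2 change was −1.37 ± 0.20 against both poles (adjusted p = 0.001, edgeR), −2.89 ± 0.22 against the animal region (adjusted p = 2.2e-10) and 0.15 ± 0.24 against the vegetal region (adjusted p = 0.76). The call held without each embryo in turn. With all sections the change was −0.18 (adjusted p = 0.84, edgeR), and in DESeq2 it was −1.40 (adjusted p = 0.095).

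adam8a, which encodes a membrane-bound metalloprotease, dropped from 124, 189 and 68.3 CPM in the animal regions of embryos 1, 2 and 3 to 22.6, 19.1 and 17.1 CPM in the middle. The vegetal regions had 10.3, 20.7 and 12.9 CPM. No animal value overlapped with the other regions, whereas middle and vegetal values did overlap. The log2 change against both poles was −1.05 ± 0.18 (adjusted p = 0.0042, edgeR). It was −0.16 with all sections (adjusted p = 0.87) and −0.77 without embryo 2 (adjusted p = 0.098).

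thy1 encodes a surface glycoprotein held by a lipid anchor. It had 495, 1743 and 1385 CPM in the animal regions, 144, 337 and 756 CPM in the middle and 168, 393 and 784 CPM in the vegetal regions. The middle was the lowest region in each embryo, yet by little: the log2 change was −1.70 ± 0.18 against the animal region (adjusted p = 1.1e-07, edgeR) and −0.15 ± 0.18 against the vegetal region (adjusted p = 0.69). Against both poles it was −0.92 ± 0.16 (adjusted p = 0.0066), with −0.72 without embryo 2 (adjusted p = 0.15) and −0.51 with all sections (adjusted p = 0.34). In embryo 3, 8 sections had thy1 values at the UMI ceiling.

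The entry of slc29a2, a nucleoside transporter, also holds reads of hif1al2 and rin1a, which cannot be divided. It had 80.3, 87.95 and 126 CPM in the animal regions, 13.7, 11.3 and 37.5 CPM in the middle and 11.99, 6.47 and 25.5 CPM in the vegetal regions. The level in the middle was above the vegetal level in each embryo and far below the animal level. The change against both poles was −0.85 ± 0.17 (adjusted p = 0.039, edgeR) and kept its call without each embryo in turn, but not with all sections (−0.68, adjusted p = 0.12).

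zmiz1a, a coactivator of transcription, and zgc:162200 were also high in the animal region and low in the middle and vegetal regions. For zgc:162200, the middle was slightly below the vegetal region in embryo 1 and above it in embryos 2 and 3. zmiz1a had 731, 396 and 132 CPM in the animal regions, 263, 90.7 and 65.4 CPM in the middle and 203, 89.3 and 56.7 CPM in the vegetal regions. In embryo 2 the middle and the vegetal region differed by little, and the embryos differed severalfold in level. The log2 change against both poles was −0.65 ± 0.13 for zmiz1a (adjusted p = 0.033, edgeR; lost without embryo 2) and −0.60 ± 0.12 for zgc:162200 (adjusted p = 0.041). zgc:162200 had 130, 155 and 113 CPM in the animal regions against 41.3, 42.9 and 46.3 CPM in the middle and 43.97, 29.8 and 31.5 CPM in the vegetal regions. Its animal values did not overlap with the others, but the call was lost when any 1 embryo was left out and in DESeq2. With all sections, the change was −0.18 for zmiz1a and 0.06 for zgc:162200 (adjusted p = 0.71 and 0.93, edgeR).

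The 4 vegetal genes of this set showed the opposite order. sybu encodes the linker by which kinesin carries dorsal determinants from the vegetal pole. It had 7.51, 9.04 and 26.3 CPM in the animal regions, 15.8, 10.3 and 36.8 CPM in the middle and 54.2, 58.9 and 177 CPM in the vegetal regions. All vegetal values lay above all values of the other regions. Its log2 change was −0.83 ± 0.13 against both poles (adjusted p = 0.0024, edgeR), 0.55 ± 0.15 against the animal region (adjusted p = 0.025) and −2.21 ± 0.14 against the vegetal region (adjusted p = 8.9e-12). The call against both poles was lost without embryo 3.

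wnt8a, a Wnt ligand of the dorsal pathway whose entry also holds BX927327.1, had 7.15, 10.1 and 15.9 CPM in the animal regions, 16.5, 16.1 and 24.02 CPM in the middle and 52.5, 68.9 and 112 CPM in the vegetal regions. Again the vegetal values did not overlap with the others, while animal and middle values nearly met. The log2 change was −0.66 ± 0.13 against both poles (adjusted p = 0.033, edgeR), and the call was lost without embryo 2 and without embryo 3.

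ctdsplb encodes a small phosphatase related to those of the RNA polymerase tail, and its entry holds dre-mir-26a-2 as well. It had 48.8, 30.9 and 68.9 CPM, 90.5, 44.2 and 93.5 CPM, and 351, 154 and 395 CPM in the animal, middle and vegetal regions of embryos 1, 2 and 3. The step from the middle to the vegetal region was larger in each embryo than the step before it. Its log2 change against both poles was −0.68 ± 0.11 (adjusted p = 0.0024, edgeR), and the call was lost without embryo 3.

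celf1, an RNA-binding protein of germ plasm whose entry also holds BX571680.1, had 47.6, 32.9 and 237 CPM in the animal regions, 73.3, 40.03 and 317 CPM in the middle and 233, 149 and 780.1 CPM in the vegetal regions. The order was the same in each embryo, and the high level of embryo 3 made the ranges overlap. The log2 change against both poles was −0.57 ± 0.11 (adjusted p = 0.033, edgeR), with the call lost without embryo 2.

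The only gene higher in the middle than the mean of the poles was ca15b (ENSDARG00000040510), which encodes a carbonic anhydrase and is known as a germ plasm RNA. It had 101, 47.1 and 167 CPM in the animal regions of embryos 1, 2 and 3, 365, 178 and 329 CPM in the middle and 349, 227 and 519 CPM in the vegetal regions. Thus ca15b was low in the animal region of every embryo, and the middle was the highest region in embryo 1 alone. The log2 change was 0.62 ± 0.12 against both poles (adjusted p = 0.03, edgeR), 1.55 ± 0.14 against the animal region (adjusted p = 8.9e-09) and −0.32 ± 0.14 against the vegetal region (adjusted p = 0.19). In 10 bins, the level of embryo 1 went from 81.3 CPM in the first bin to 402 CPM in the fifth and stayed between 347 and 415 CPM from there on. Embryo 2 went from 23.4 CPM to 109 CPM in the fifth bin and had between 177 and 260 CPM in the later ones. Embryo 3 rose throughout, from 130 CPM to 357 CPM in the fifth bin and 610 CPM in the last. The profile was thus level in its vegetal part in embryo 1 but not in embryo 3. The call against both poles was lost without embryo 1 and without embryo 2, and with all sections the change was 0.30 (adjusted p = 0.43, edgeR).

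**Figure D4:**
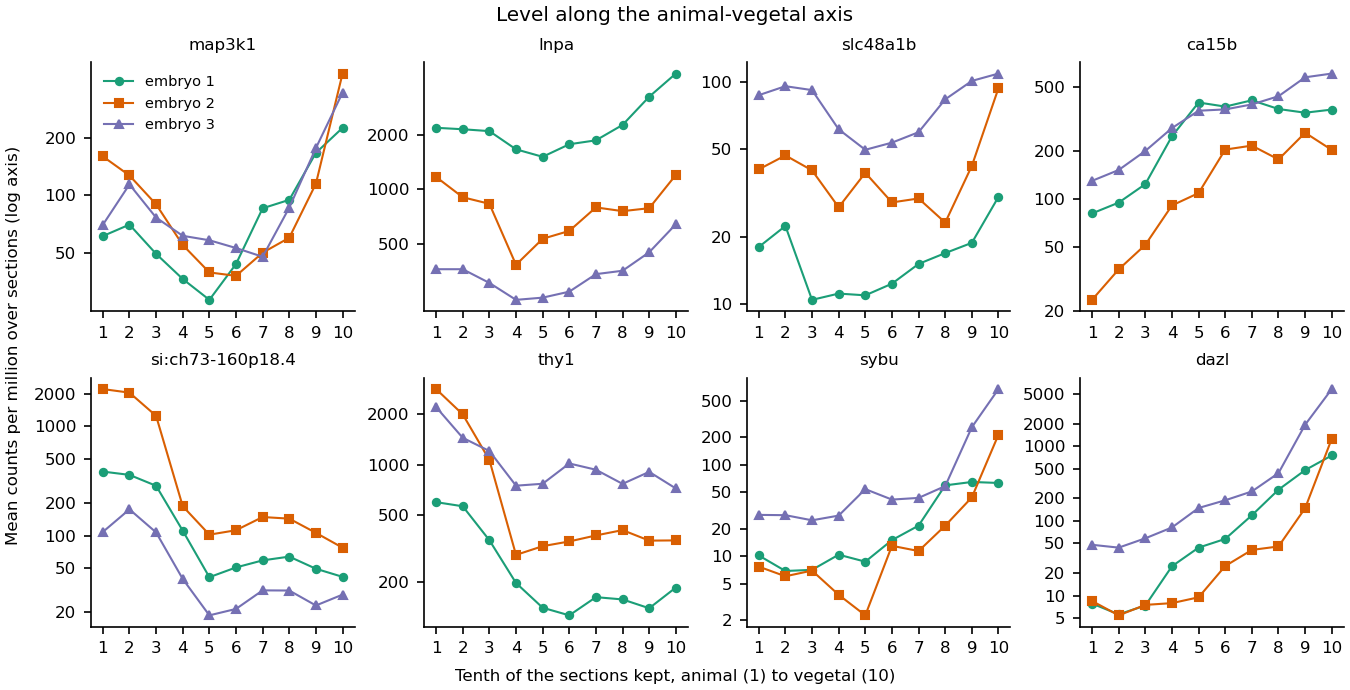
Mean level over sections in CPM (log axis) in 10 equal bins of the kept sections, from animal (1) to vegetal (10), 1 line per embryo. map3k1 is lowest in bins 5 to 7, ca15b is level from bin 5 on in embryo 1 and rises to bin 10 in embryo 3, si:ch73-160p18.4 and thy1 are low from bin 4 or 5 on, and sybu and dazl are highest in bins 9 and 10.

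Each pole alone differed from the middle in many more genes. Against the animal region, 101 entries were higher in the middle (0.986%) and 707 lower (6.9%). Against the vegetal region, 530 were higher (5.18%) and 161 lower (1.57%; edgeR, adjusted p below 0.05). With TMM factors in place of the totals of the regions, these numbers were 265 and 375 (2.59% and 3.66%), and 142 and 272 (1.39% and 2.66%). The median log2 change of all entries was −0.14 against the animal region and 0.15 against the vegetal region with totals, and −0.01 and 0.01 with TMM factors, so that a change near these medians depends on the scaling. Without the mitochondrially encoded genes, the counts were 202 and 356 against the animal region and 265 and 193 against the vegetal region. The counts against the animal region were 48 and 375 without embryo 2 and 79 and 469 without embryo 3. Those against the vegetal region were 308 and 160 without embryo 1 and 97 and 85 without embryo 3.

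Of 1287 entries called against at least 1 end, 212 were called against both singly. Among these, 157 were graded from a high animal to a low vegetal level, 52 were graded the other way, and 3 were the genes below both ends. A further 596 differed from the animal region alone and 479 from the vegetal region alone. In 4 groups of nearly equal size by mean level, from the lowest to the highest, 55, 154, 263 and 235 of the 707 entries lower than the animal region were found.

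To place the middle on each gradient, its level was given as a percentage of the way from the animal level (0%) to the vegetal level (100%) on the scale of log2(CPM + 1). This was done for entries called between the poles with a log2 difference of at least 1 and a mean of at least 10 CPM. For 342 entries high in the animal region, the median was 53.3%, 75.6% and 49.7% of the way in embryos 1, 2 and 3. For 86 entries high in the vegetal region, it was 44.5%, 38.5% and 33%. In every embryo, the middle thus lay further along the way for genes of the animal side than for genes of the vegetal side. The choice of entries used the same libraries, and the values are a description.

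Marker genes of the ends were graded along the axis, with the middle between them. dazl, an RNA-binding protein of the germ line, had 7.69, 8.42 and 48.7 CPM in the animal regions, 53.2, 26.5 and 126 CPM in the middle and 413, 189 and 1339 CPM in the vegetal regions. grip2a, a scaffold protein required for dorsal determination, had 49.6, 22.9 and 57.2 CPM in the middle. Both were graded in each embryo, at 1.78 ± 0.18 and 1.70 ± 0.20 log2 units above the animal region (adjusted p = 4.5e-08 and 3.5e-07, edgeR) and −3.12 ± 0.17 and −2.99 ± 0.17 against the vegetal region (adjusted p = 2.6e-13 and 1.2e-12). All 4 vegetal and both animal markers were called against each end. Of the 8 blood markers in the tables, 7 had counts in the regions, the entry of hbaa1 was at 0, and none passed the filter. Their summed level was at most 3.84 CPM in any region. The 6 markers of ovarian follicle cells in the tables summed to between 9.7 and 105 CPM, and in the middle region to 9.7, 23.9 and 86.2 CPM. The 1 follicle marker tested, cyp17a1, had a log2 change of −0.05 against both poles, and the part of such cells in the results was not tested.

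Of 19 germ plasm genes tested, 7 were higher in the middle than in the animal region and 2 lower, against 0.986% and 6.9% of all entries, and 1 was higher and 4 lower than in the vegetal region, against 5.18% and 1.57%. The median of the list was 0.25 against the animal region, where that of all entries was −0.14. This median was 0.06 without embryo 1, 0.24 without embryo 2 and 0.42 without embryo 3. The 7 became 6 without each embryo in turn and 8 with TMM factors. ddx4, the RNA helicase Vasa, had 77.9, 94.3 and 74.1 CPM in the middle against 41.8, 52.6 and 52.6 CPM in the animal and 87.4, 70.2 and 69.3 CPM in the vegetal regions. All middle values of ddx4 lay above all animal values and overlapped with the vegetal ones. dnd1, an RNA-binding protein needed for germ cell survival, had 281, 186 and 249.7 CPM in the middle, 149, 116 and 179 CPM in the animal and 343, 171 and 313 CPM in the vegetal regions. The changes against the animal region were 0.72 ± 0.12 for ddx4 (adjusted p = 0.00017, edgeR) and 0.68 ± 0.12 for dnd1 (adjusted p = 0.00027), and those against the vegetal region were 0.13 ± 0.13 (adjusted p = 0.62) and −0.17 ± 0.12 (adjusted p = 0.44). Neither was called against the vegetal region, whereas dazl, grip2a, celf1 and hook2, a linker of cargo to microtubules, were called lower in the middle than in the vegetal region.

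nanos3, a repressor of translation in germ cells, had its highest level in the middle region of each embryo. It had 90.1, 201 and 442 CPM there, 70.6, 139 and 410 CPM in the animal regions and 57.7, 137 and 327 CPM in the vegetal regions. Only the difference from the vegetal region passed the test (0.53 ± 0.12, adjusted p = 0.0063, edgeR), and that from the animal region did not (0.32 ± 0.11, adjusted p = 0.086). tdrd1 and asz1, factors of the piRNA pathway, went the other way and were lower in the middle than in the animal region (−0.92 and −0.56, adjusted p = 2.5e-05 and 0.032).

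Of 23 genes of dorsal determination and Wnt signaling, 4 were higher and 5 lower in the middle than in the animal region, and 3 were higher and 4 lower than in the vegetal region. These are 17.4% and 21.7%, and 13% and 17.4% of the list, where all entries gave 0.986% and 6.9%, and 5.18% and 1.57%. Without embryo 3, none was called higher than in the vegetal region. The 4 vegetal ones were grip2a, sybu, wnt8a and lef1, a transcription factor that acts with beta-catenin. lef1 had 6.62, 9.04 and 28.9 CPM in the animal regions, 25.5, 20.02 and 66.7 CPM in the middle and 71.9, 53.1 and 196 CPM in the vegetal regions. It was evenly graded, with 1.34 ± 0.15 against the animal region (adjusted p = 1.9e-07, edgeR) and −1.51 ± 0.14 against the vegetal region (adjusted p = 1.7e-08). axin1, lrp5, tcf7l1a and fzd7b, which encode a scaffold of beta-catenin breakdown, a co-receptor, a repressor and a receptor of the pathway, were lower in the middle than in the animal region, at −1.01, −0.97, −0.84 and −0.82. Only axin1 of these was also called against the vegetal region (0.62, adjusted p = 0.0047). ctnnb1, which was among the 3 called higher than in the vegetal region, had 3, 1 and 38 counts in the middle regions, too few for a level.

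Of 19 factors that prepare the activation of the zygotic genome, 4 were lower and 1 higher in the middle than in the animal region, and 3 were higher than in the vegetal region. The shares were 21.1% and 5.26%, against 6.9% and 0.986% of all entries, and 15.8% against 5.18%. With TMM factors, without embryo 1 and without embryo 3, 1 was higher than in the vegetal region. foxh1, a partner of Smad proteins in Nodal signaling, had 261, 280 and 243 CPM in the animal regions, 62.1, 40.03 and 85.1 CPM in the middle and 29.7, 28.1 and 35.4 CPM in the vegetal regions. The regions did not overlap. The change was −2.07 ± 0.15 against the animal region (adjusted p = 1.2e-10, edgeR) and 1.01 ± 0.18 against the vegetal region (adjusted p = 0.0005). pou5f3, a pioneer factor, was at −1.0 ± 0.15 against the animal region (adjusted p = 1.8e-05) and at 0.28 ± 0.16 against the vegetal region (adjusted p = 0.29). eomesa, a T-box factor, was the 1 gene of the list that was higher in the middle than in the animal region (0.73, adjusted p = 0.00081).

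Of 40 genes of the cleavage cell cycle, 5 were lower than in the animal region, 5 were higher than in the vegetal region and none was called in the other directions. Each is 12.5% of the list, against 6.9% and 5.18% of all entries. The numbers were 3 and 4 without embryo 1, 3 and 3 without embryo 2, and 9 and 7 without embryo 3. fbxo5 (Emi1), an inhibitor of the anaphase-promoting complex, had 210, 206 and 816 CPM in the animal regions, 50.3, 32.3 and 339 CPM in the middle and 17.1, 19.4 and 132 CPM in the vegetal regions. It was graded in each embryo, with −1.92 ± 0.16 against the animal region (adjusted p = 2.0e-09, edgeR) and 1.22 ± 0.19 against the vegetal region (adjusted p = 0.0001). ccnb3, a B-type cyclin, was at −1.61 ± 0.17 against the animal region (adjusted p = 9.4e-08) and at 0.30 ± 0.24 against the vegetal region (adjusted p = 0.50).

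Motor proteins gave 14 of 60 genes lower and 1 higher than in the animal region, and 8 higher and none lower than in the vegetal region. The 14 are 23.3% of the list, against 6.9% of all entries, and the 8 are 13.3%, against 5.18%. With TMM factors they were 10 and 5, against 3.66% and 1.39% of all entries. Without embryo 2 they were 9 and 10, and without embryo 3 they were 11 and 3. kifc1, a minus-end-directed kinesin of the spindle, had 379, 937 and 408 CPM in the animal regions, 165, 315 and 244 CPM in the middle and 102, 222 and 175 CPM in the vegetal regions. All animal values lay above all middle values, while middle and vegetal values overlapped. The change was −1.18 ± 0.14 against the animal region (adjusted p = 3.9e-07, edgeR) and 0.55 ± 0.14 against the vegetal region (adjusted p = 0.017). kif4, a chromosome-associated kinesin, was at −1.17 and 0.68 (adjusted p = 8.0e-07 and 0.0074). The entry higher than in the animal region was that of myo18ab, an unconventional myosin (0.66, adjusted p = 0.0004).

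Among 60 genes of actin, tubulin and their regulators, 3 were lower and 3 higher than in the animal region, and 3 were lower and 4 higher than in the vegetal region. The shares against the animal region were 5% each, where all entries gave 6.9% lower and 0.986% higher. Against the vegetal region they were 5% and 6.67%, where all entries gave 1.57% and 5.18%. With TMM factors, none was called higher than in the vegetal region and 1 was lower than in the animal region. Without embryo 3, these numbers were 1 and 0. The 3 that were lower than in the vegetal region belong to actomyosin: anln, the anillin of the cleavage furrow (−1.56 ± 0.19, adjusted p = 3.1e-06, edgeR), the light chain myl12.1 (−1.52 ± 0.14, adjusted p = 1.8e-08) and the heavy chain myh9a (−1.0, adjusted p = 1.9e-05). anln had 61.5, 25.3 and 162 CPM in the animal regions, 62.1, 13.2 and 218 CPM in the middle and 103, 64.7 and 759 CPM in the vegetal regions. Its vegetal region was the highest in each embryo, and its middle region the lowest in embryo 2 alone.

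Of 41 genes of ER translocation and folding, 6 were lower than in the animal region, none higher, and 3 were higher than in the vegetal region. The 6 are 14.6% of the list, against 6.9% of all entries, and the 3 are 7.32%, against 5.18%. The 6 became 5 with TMM factors, 4 without embryo 2 and 3 without embryo 3, and the 3 became 0 with TMM factors, without embryo 1 and without embryo 3. sec61a1, the channel subunit of the translocon, had 355, 234.1 and 406 CPM in the animal regions, 167, 83.6 and 252 CPM in the middle and 149, 81.2 and 252 CPM in the vegetal regions. Middle and vegetal values were nearly equal, and the log2 change was −1.08 ± 0.13 against the animal region (adjusted p = 9.5e-07, edgeR) and 0.07 ± 0.14 against the vegetal region (adjusted p = 0.82). Its paralog sec61a1l had the same shape (−0.86 and −0.03, adjusted p = 4.4e-05 and 0.93). Of 134 solute carriers, 14 were lower and 1 higher than in the animal region, and 4 were lower and 4 higher than in the vegetal region. The 14 are 10.4% of the list, against 6.9% of all entries, and each 4 is 2.99%, against 1.57% lower and 5.18% higher. With TMM factors, 6 were lower than in the animal region and none higher than in the vegetal region. The number lower than in the animal region was 7 without embryo 2 and 6 without embryo 3. slc38a7, an amino acid transporter, was vegetal (−1.44 ± 0.17 against the vegetal region, adjusted p = 1.5e-06).

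All 7 mitochondrially encoded entries passed the filter. Their median log2 change was 0.32 against the animal and −0.49 against the vegetal region, and 1 was called, that of mt-cyb, a subunit of complex III, which was lower than in the vegetal region (−0.65 ± 0.17, adjusted p = 0.021, edgeR). This is 14.3% of the 7, against 1.57% of all entries. With TMM factors, 4 were lower than in the vegetal region and 1 higher than in the animal region, without embryo 3 these were 3 and 1, and without embryo 1 none was called. Over embryos 1 to 3 together, 24 sections had mt-cyb values at the UMI ceiling of their embryo. Of 88 nuclear-encoded genes of the respiratory chain, 4 were higher and none lower than in the animal region, and 2 were higher than in the vegetal region: ndufb8 of complex I (0.70 ± 0.14, adjusted p = 0.0022) and cox6b2 of complex IV (0.66, adjusted p = 0.0034). The 4 are 4.55% of the list, against 0.986% of all entries, and the 2 are 2.27%, against 5.18%. The 4 became 11 with TMM factors, 9 without mitochondrial genes, 0 without embryo 2 and 1 without embryo 3. The 11 are 12.5% of the list, against 2.59% of all entries with TMM factors. Without mitochondrial genes, 202 entries in all were called higher than in the animal region.

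In the lists that follow, the counts are read against 0.986% higher and 6.9% lower than in the animal region and 5.18% higher and 1.57% lower than in the vegetal region for all entries. With TMM factors, these shares of all entries were 2.59% and 3.66%, and 1.39% and 2.66%. Of 91 entries of the ribosomal protein list, 1 was higher and 2 lower than in the animal region, and 2 were higher than in the vegetal region (1.1%, 2.2% and 2.2%). With TMM factors, 17 were higher than in the animal region (18.7%, against 2.59% of all entries). Without mitochondrial genes, 24 were higher (26.4%), where 202 entries in all were called higher. Both lower ones, rps6kal and rps6kc1, are kinases that the list took up by the start of their symbols. Of 60 translation initiation factors, 3 were lower than in the animal region and 4 higher than in the vegetal region (5% and 6.67%), with eif4g1a (−0.53, adjusted p = 0.002, edgeR) and eif4bb (0.55, adjusted p = 0.0092) as examples. These numbers were 1 and 0 with TMM factors, 4 and 0 without embryo 1, 0 and 2 without embryo 2, and 5 and 0 without embryo 3. Of 34 genes of stored mRNA and deadenylation, 1 was higher and 3 lower than in the animal region, and 1 was higher and 1 lower than in the vegetal region (8.82% for the 3 and 2.94% for each of the others). The 3 became 1 without embryo 2 and 7 without embryo 3. Among them cpeb1b, which controls polyadenylation in the cytoplasm, was graded from the animal side (−1.28 ± 0.15 and 0.66 ± 0.16, adjusted p = 4.7e-07 and 0.0097), and celf1 from the vegetal side.

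Of 51 genes of the nuclear pore and nuclear import, 3 were lower than in the animal region, and 6 were higher and 1 lower than in the vegetal region (5.88%, 11.8% and 1.96%). The 6 became 1 with TMM factors and 0 without embryo 3, and the 3 became 1 with TMM factors, without embryo 1 and without embryo 2. ipo13, an importin, had the largest value (1.79 ± 0.37 against the vegetal region, adjusted p = 0.003, edgeR), from 5, 4 and 121 counts in the middle regions. kpna6, an importin alpha, was vegetal (−0.98 ± 0.18, adjusted p = 0.00069). Of 81 splicing genes, 1 was higher and 2 lower than in the animal region, with the core protein snrpf higher (0.79 ± 0.15, adjusted p = 0.00055) and 1, hnrnpd, higher than in the vegetal region (1.23%, 2.47% and 1.23%). Of 71 cytosolic chaperones, 1 was higher and 3 lower than in the animal region (1.41% and 4.23%), and 1 was higher than in the vegetal region. Of 50 genes of vesicle coats and Golgi transport, 1 was higher and 2 lower than in the animal region (2% and 4%), and 2 were higher and 1 lower than in the vegetal region (4% and 2%). The one higher than in the animal region, golga3, a golgin, was graded from the vegetal side (0.94 ± 0.14 and −0.71 ± 0.14, adjusted p = 1.8e-05 and 0.0018). With TMM factors, none of the splicing genes, chaperones or Golgi genes was called lower than in the animal region. Of 17 glycolytic genes, 3 were higher than in the vegetal region (17.6%), namely eno1a, pkma and pfklb (0.57, 0.52 and 0.47, adjusted p = 0.0075, 0.0068 and 0.011), and pfklb was lower than in the animal region (5.88%; −0.33, adjusted p = 0.047). With TMM factors none was called, and without embryo 1 and without embryo 3 the 3 became 1. Of 37 proteasome genes, psma8 and psmd11a were lower than in the animal region (5.41%; −0.61 and −0.38, adjusted p = 0.0021 and 0.033), and psmd11a was higher than in the vegetal region (0.41, adjusted p = 0.039). With TMM factors, 1 was lower than in the animal region and none higher than in the vegetal region, and without embryo 3 none was called. Of 17 histone genes, h2afx1 was higher than in the animal region and hist1h2a11 higher than in the vegetal region (0.44 and 1.07, adjusted p = 0.02 and 0.014). None of 10 genes of yolk and lipoprotein and none of 13 of the egg coat was called at an adjusted p below 0.05 (edgeR). With TMM factors, 1 yolk and lipoprotein gene was higher than in the animal region. Without embryo 3, 1 of them was lower, and without embryo 1, 1 egg coat gene was lower.

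The middle region was not uniform within itself. Its sections were divided into an animal-side and a vegetal-side part with nearly equal numbers of sections, with the odd section in the vegetal-side part. Of 7660 entries tested, 10 were higher in the animal-side part (0.131%) and 8 in the vegetal-side part (0.104%; edgeR, adjusted p below 0.05, embryo as a block). These 18 entries were chosen by this test and not by the rule for named genes. The parts held unequal shares of the counts, since the animal-side part had 51.3%, 33.3% and 75.7% of the middle region in embryos 1, 2 and 3. The numbers were 2 and 3 without embryo 1 and 20 and 15 without embryo 2.

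Among the genes of the animal-side part, fbxo5 had the lowest p. It had 65.8, 58.1 and 408 CPM there and 33.9, 19.4 and 125 CPM in the vegetal-side part, a log2 difference of 1.47 ± 0.19 (adjusted p = 6.6e-07, edgeR). foxh1 had 81.2, 58.1 and 101 CPM against 42.03, 31 and 35.2 CPM (1.15 ± 0.22, adjusted p = 0.002). All animal-side values of foxh1 lay above the values of the vegetal-side part, whereas those of fbxo5 overlapped between embryos. The others were exd2, a protein with an exonuclease domain (1.15), arhgef39 (1.18), phkg2, a catalytic subunit of phosphorylase kinase (0.95), micall2b (0.91), cpeb1b (0.76), si:dkey-25o16.4 (1.08), ENSDARG00000079546 (1.39) and ppp2r3b, a regulatory subunit of protein phosphatase 2A (1.85 ± 0.44, adjusted p = 0.039), which had at most 0.7 CPM in embryo 1.

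Among those of the vegetal-side part, dazl had 80.4, 32.9 and 232 CPM against 27.3, 13.6 and 92.2 CPM in the animal-side part (−1.39 ± 0.21, adjusted p = 2.0e-05, edgeR). trim36, a ubiquitin ligase required for dorsal determination, had 449, 315 and 701 CPM against 223, 195 and 321 CPM (−0.95 ± 0.14, adjusted p = 2.0e-05). Both were higher in the vegetal-side part in 3 of 3 embryos. grip2a (−1.06), sh2d5 (−0.85), slbp2, which binds the stem-loop of histone mRNAs (−0.80), hook2 (−0.71), si:ch211-157b11.12 (−0.90) and gdf3, the TGF-beta ligand Vg1 (−0.63), were the other vegetal-side genes. For gdf3, the middle region as a whole differed by 0.02 from the animal and −0.36 from the vegetal region, and its call between the parts was lost without each embryo in turn. Only dazl, trim36, exd2 and fbxo5 kept their call with TMM factors, in DESeq2 and without each embryo in turn. Every other entry lost it in at least 1 of these settings. foxh1 and grip2a lost it without embryo 1 and without embryo 3. Of the 18 entries, none was called against the mean of both poles.

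**Figure D5:**
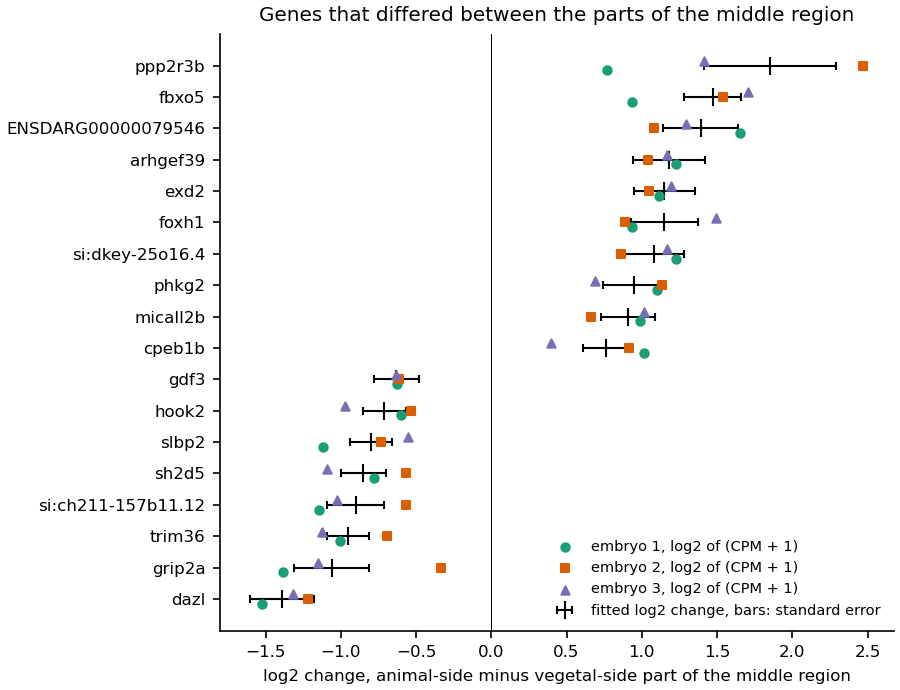
log2 change between the animal-side and the vegetal-side part of the middle region for the 18 entries called; points are the embryos and bars the fitted change with its standard error. All 3 points of each entry lie on the same side of 0.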

How the data were processed

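Tables of 3 zebrafish embryos were used. Per the labels and methods, the authors aligned reads to GRCz10 with STAR 2.5.3a and assigned UMIs to genes and sections. The deposited values are expected counts, in which UMI counts were corrected for molecules sharing a UMI. Undoing the correction gave whole numbers for 100% of values in each embryo. The UMI has 6 nt in embryos 1 and 2 and 4 nt in embryo 3. The table of embryo 2 is separated by tabs, its unit was entered as other, and its deposited values are expected counts as well. For scSLAM-seq, deposited counts of labeled and unlabeled UMIs were read in 6847 cells with at least 150 genes of either kind. Tables of the frog oocytes were not used, and no column of another series was found.

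Spike-in rows were dropped. Symbols were joined by Ensembl identifier for 20558 of 21979 entries, and 1466 entries that join several identifiers were kept whole. Expected counts were summed per region, rounded, filtered with filterByExpr by region (10239 entries, 9934 with symbol) and tested in edgeR 4.0.16 (limma 3.58.1, R 4.3.3) with glmQLFit and glmQLFTest, the embryo as block and totals as library sizes, at 4 residual degrees of freedom (2 for the parts of the middle region) and a Benjamini-Hochberg threshold of 0.05. Common dispersion was 0.00974 (0.0242 for the parts). The 3 regions of a number come from 1 embryo, hence the block. Their deviations from the group means correlated at 0.853 to 0.968. DESeq2 1.42.0, TMM factors and other choices were alternatives. Other steps used Python 3.11.15 (pandas 2.3.3, numpy 2.4.6) and figures matplotlib 3.10.9. Scripts were tested on simulated data. Depth was 1751624 to 19525047 counts per region.

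Genes named against the poles had a symbol and 1 direction in 3 of 3 embryos: up to 10 per direction called against both poles, and up to 10 above or below both. celf1, called against both poles but outside the first 10, was named as well. From each list, the 2 called members with a symbol and the largest change against both or either pole were named, whatever their direction in single embryos. Other genes given for lists and parts were chosen after their values were seen. The comparison and the lists were chosen with earlier results of these data known. Per the methods, sections with little spike-in RNA were removed by the authors in their analysis, and the rule on section totals was used here instead. No sequence is shown, since no reference sequence was used here.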

Additional observations from a re-analysis of the deposited data

How the results depend on the processing

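Counts of genes in the middle moved with several choices, and they are given as higher and lower, against both poles, the animal region and the vegetal region. They were 1 and 11, 101 and 707, and 530 and 161 in the report. With TMM factors they were 1 and 14, 265 and 375, and 142 and 272. DESeq2 gave 2 and 13, 232 and 257, and 74 and 224. Without a filter on low counts they were 8 and 52, 115 and 709, and 491 and 171, and with at least 10 counts in every region 0 and 4, 95 and 544, and 529 and 154. With all sections they were 5 and 23, 71 and 344, and 2093 and 257, and with sections of at least 25% of the median 1 and 8, 100 and 649, and 898 and 174. With sections weighted equally they were 9 and 64, 97 and 653, and 469 and 188, and with 5 regions in place of 3 15 and 87, 132 and 779, and 1095 and 244. With the counts of both poles summed into 1 library, 47 and 640 were called against both. This library weights the poles by their counts, with mean shares of 55.89% animal and 17.8% vegetal, and not equally. It is thus another measure: si:ch73-160p18.4 was at −2.55 there against −1.37 in the report, and sybu at −0.56 against −0.83. Without entries at the UMI ceiling the counts of genes were 3 and 21, 231 and 373, and 258 and 205, and without mitochondrial genes 3 and 22, 202 and 356, and 265 and 193. Leaving out 1 embryo gave 0 to 2 and 7 to 42, 48 to 107 and 375 to 585, and 97 to 486 and 85 to 160. The settings with all sections, with sections of at least 25% of the median and with 5 regions also moved the cut points of the regions. Why these counts moved was not tested.

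Genes above both poles, 0 in the report, numbered 1 without a filter, 5 with equal weights, 5 with 5 regions, 2 without entries at the ceiling, 2 without mitochondrial genes, and 0 without each embryo in turn. Genes below both, 3 in the report, numbered 1 in DESeq2, 1 with all sections, 8 with 5 regions, 1 without mitochondrial genes and 1 to 2 without an embryo. Between the parts of the middle region, 10 and 8 became 7 and 3 with TMM factors, 6 and 4 in DESeq2, 147 and 29 with all sections, 20 and 19 with sections of at least 25%, 1 and 4 with equal weights, and 2 to 20 and 3 to 15 without an embryo. The share of counts in the middle region was 46.6% with all sections and 28.6% with sections of at least 25%, against 26.33%.

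The regions of an embryo are paired by design. Without the embryo as a block, edgeR called 0 genes in every comparison of the regions and parts, with 0 higher and 2 lower against both poles, 5 and 34 against the animal region and 6 and 17 against the vegetal region at an unadjusted p below 0.05. Of 209 values of the 14 named genes under alternatives, 1 reversed: zgc:162200 was at 0.06 with all sections. 46 lost the call, and 12 of lnpa and slc48a1b gained it. map3k1 kept its call in all alternatives except without the block, between −1.78 and −1.02. Of the 12 genes, 12 were called with TMM factors, without a filter and with 5 regions, 11 with equal weights, 11 without mitochondrial genes, 11 without entries at the ceiling (thy1 not tested), 10 in DESeq2, 9 with sections of at least 25%, 5 with all sections and 4 with at least 10 counts in every region. With summed poles, a measure that weights the poles by their counts, 12 were called. Of 4 groups of nearly equal size by mean level, the lower 2 held 0 of the 12 calls against both poles and the upper 2, from 24.4 CPM, held 5 and 7. Changes in RNAs of low level may be missed at this depth.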

Other observations

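The single-cell library from 6 h.p.f., in which new RNA was chemically labeled, gives labeled and unlabeled counts for the same genes. Over all genes, 39.6% of the counts in 6847 cells were labeled. thy1 had 808 labeled and 12781 unlabeled counts, or 5.95% labeled (exact 95% binomial interval 5.55 to 6.36), and ca15b 89 and 776 (10.3%, 8.34 to 12.5). The entry of celf1, which joins 2 identifiers, had 410 and 1407 (22.6%, 20.7 to 24.6), and lnpa had 22 and 142 (13.4%, 8.6 to 19.6). si:ch73-160p18.4 had 45 and 152 (22.8%, 17.2 to 29.3), and the entry of ctdsplb had 29 and 42 (40.8%, 29.3 to 53.2). slc48a1b had 350 and 430 (44.9%, 41.3 to 48.4), and zgc:162200 had 174 and 21 (89.2%, 84 to 93.2). map3k1 had 4 labeled and 12 unlabeled counts and sybu 0 and 2, too few for a share. Counts were also few for adam8a (11 and 14), zmiz1a (0 and 5) and the entries of wnt8a (11 and 1) and slc29a2 (6 and 6). With 1 library there is no replicate check, and the intervals cover counting error only.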
